A study of Mus musculus with 9 samples.

Results

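The Egr family and its Nab corepressors were followed as 5 genes, Egr1, Egr2, Egr3, Nab1 and Nab2, each found by its symbol among the 31167 genes of the expression table, and the table held 1 row for each. Expression was measured by RNA sequencing in primary renal tubular epithelial cells (TECs) of C57BL/6 mice, with 3 libraries in each of 3 groups. Sham cells were the negative control. H/R cells spent 6 h at 1.0% O2 in medium without glucose and then 18 h in complete medium under normal oxygen, a culture model of ischemia-reperfusion injury. EGR1OV cells were transfected with an Egr1 overexpression plasmid, in which, per the study's methods, a cytomegalovirus (CMV) promoter drives Egr1 and EndoFectin Max was the transfection reagent. Hypoxia/reoxygenation is given as a treatment for the H/R libraries alone. No group with an empty vector was compared here, so the transfection and the Egr1 insert cannot be told apart. The table has 1 Egr1 value per library, so transcripts of the plasmid and of the cells' own gene cannot be told apart either. The labels do not say that the 3 libraries of a group came from separate cultures, so the p-values below measure only the spread between these libraries.

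Egr proteins are zinc finger transcription factors that bind GC-rich sites in promoters. Egr1 is an immediate early gene: growth factors, stress and hypoxia act through ERK and serum response factor, which binds CArG boxes, and its transcript then rises and decays quickly. Nab1 and Nab2 carry no DNA-binding domain of their own; they bind a repression domain that Egr1, Egr2 and Egr3 share and bring in the NuRD chromatin remodelling complex, and because Nab genes can themselves respond to Egr factors the pairing is described as a feedback loop.

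Levels are given in FPKM (fragments mapped to a gene, scaled to its length and to the depth of the library), which is per length, so that values of different genes can be set side by side. Each library held between 16183616 and 18384021 reads, as recovered from the FPKM values. Differences between groups are on the log2(FPKM + 1) scale, which understates changes of low genes, from a limma fit to all 9 libraries and to the 13985 genes that averaged 0.5 FPKM or more. To pass the test, a gene needed an adjusted p (Benjamini-Hochberg over all genes tested) below 0.05 together with a 1.3-fold change on that scale, or a 1.2-fold change for H/R against Sham. The test covered 4 members, and Egr3 lay below the filter.

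On the coordinates of the table, which equal those of GENCODE M21 on GRCm38 for all 5 members, Egr2 (ENSMUSG00000037868) spans chr10:67535475-67542188 on the plus strand, Egr3 (ENSMUSG00000033730) chr14:70077203-70082614 plus, Nab1 (ENSMUSG00000002881) chr1:52457294-52500679 minus and Nab2 (ENSMUSG00000025402) chr10:127660918-127668568 minus. All are protein coding, and Egr1 is placed below. Nab2 is the one member whose exons overlap those of other genes. On the opposite strand, Gm16229 covers 1050 of its 2941 exon bases (35.7%), Nemp1 151 bases and Stat6 40 bases. Whether reads were counted by strand is not given in the sources used here, so reads of Nab2 and of these partners may not be separable.

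RefSeq promoter windows (GRCm38.p6, 250 bases before to 50 after each start) were matched for Egr2, Nab1 and Nab2, but not for Egr1 or Egr3. Both strands were searched for the EGR motifs GCGTGGGCG and GCGGGGGCG, which cannot match at the same place, and for the CArG box. The single Nab1 window, 81.7% G or C, held GCGTGGGCG at 2 places and GCGGGGGCG at 1 place. Across all 32851 promoter windows, of any base content and not matched for G and C, 0.612% held the former and 2.91% the latter. One match of each is shown, because Nab1 is the corepressor whose level differed most between groups; capitals mark the motif, and both stretches read along the minus strand of the gene and lie in the exon that GENCODE M21 places furthest upstream.
Nab1, positions -109 to -101 from the start, chr1:52500539-52500567: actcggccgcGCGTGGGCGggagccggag
Nab1, positions -38 to -30 from the start, chr1:52500468-52500496: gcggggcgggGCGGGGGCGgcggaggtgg
The other GCGTGGGCG of Nab1 lay at -141 to -133, on the opposite strand. The Nab2 window held none of the 3 motifs.

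Egr2 had 5 promoter windows. None held an EGR motif, and the 4 further downstream each held 1 CArG box, against 1.63% of all windows. The boxes are at 2 places, neither in a GENCODE M21 exon, and are shown with the box in capitals because Egr2 was the member that responded most to H/R. The first stands in the 250 bases before a start, on the plus strand, and the second in a stretch further downstream.
Egr2, chr10:67537316-67537565: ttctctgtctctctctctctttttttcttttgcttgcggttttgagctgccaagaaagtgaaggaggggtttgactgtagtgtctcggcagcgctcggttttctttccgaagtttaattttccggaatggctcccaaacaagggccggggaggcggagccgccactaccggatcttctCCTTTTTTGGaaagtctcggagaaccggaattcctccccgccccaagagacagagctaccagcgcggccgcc
Egr2, chr10:67537788-67537815: ttcctcagtCCATATATGGgcagcgacg
These matches describe letters in a window and say nothing of whether a factor was bound.

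Tubular identity and other cells were checked by marker lists. Counts of called markers are to be read beside those of all genes tested. In EGR1OV 9.87% of all genes were called higher and 6.51% lower, and after H/R 1.6% and 2.65%. Pax8, Pax2, Cdh1, Epcam and Krt8 were at 12.3 FPKM or more in every group mean, whereas Umod was listed at 0 in all 9 libraries and Slc34a1 had at most 5 reads per group, so epithelial markers were present, while these markers of the thick ascending limb and of proximal phosphate transport were at or near 0. Other proximal markers were detected: Lrp2 at 3.6, 3.44 and 1.22 FPKM and Aqp1 at 1.3, 1.16 and 0.368 FPKM in Sham, H/R and EGR1OV, with 406, 296 and 297 reads of Cubn. Summed FPKM of the 12 macrophage markers ran from 155 to 161 in Sham, from 131 to 141 after H/R and from 28.2 to 33.4 in EGR1OV. All 10 that were tested fell in EGR1OV and 2 fell after H/R, and none of the 12 was at 0 in any group. The 8 endothelial markers summed to at most 13 FPKM in any library, and 1 of 5 tested fell in EGR1OV. For the 8 fibroblast markers the sum was between 36.5 and 38.4 FPKM in Sham, between 44.4 and 45.1 FPKM after H/R and between 41.5 and 46.1 FPKM in EGR1OV, and 1 of 5 tested rose in EGR1OV and 3 rose after H/R. Of 17 tubular markers in the table, 12 were tested: in EGR1OV 2 rose and 6 fell, and after H/R 1 rose. All 15 interferon response genes rose in EGR1OV, by a median of 4.66 log2 units, and 1 rose after H/R. In bulk cultures, fewer cells of a type and less RNA per cell cannot be told apart. The part of these other cells and of the interferon response in the results below was not tested.

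In Sham cells Nab1 was the most abundant member and Egr3 the least. Mean levels were 11.5 ± 0.133 FPKM for Nab1, 6.40 ± 0.443 for Egr1, 2.89 ± 0.334 for Nab2, 0.832 ± 0.129 for Egr2 and 0.194 ± 0.012 for Egr3 (SD, n = 3). No pair of neighbours in this order overlapped between libraries, and the same order held after H/R, again without overlap. In EGR1OV Egr1 moved to the top, with its lowest library at 40.1 FPKM and the highest Nab1 library at 19.3 FPKM, and the order of the others stayed. Among all 31167 genes Egr1 stood at rank 6495 by mean level in Sham, 5590 after H/R and 1176 in EGR1OV. For Nab1 the ranks were 4293, 3790 and 2940.

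**Figure D1:**
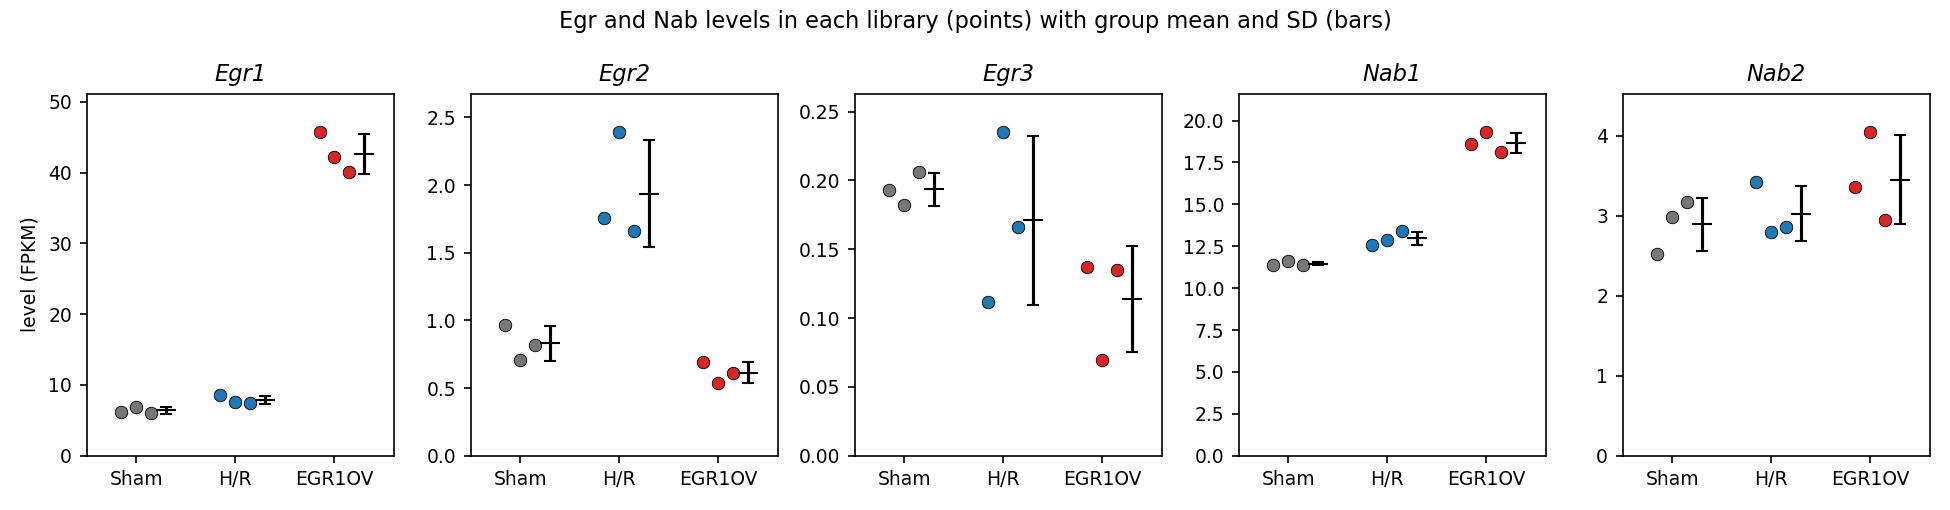
Level in FPKM (linear y axes from 0, one scale per gene) of the 5 members in each of the 9 libraries, with points for libraries and bars for the group mean and SD. Egr1 and Nab1 are highest in EGR1OV, with no overlap with the other groups, Egr2 is highest after H/R, and the groups of Nab2 overlap.

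Egr1 (ENSMUSG00000038418, chr18:34859823-34864984, plus strand), the gene carried by the plasmid, was the check of the labels. Its 3 Sham libraries were at 6.20, 6.91 and 6.09 FPKM, the H/R libraries at 8.57, 7.59 and 7.48 FPKM, and the EGR1OV libraries at 45.7, 42.2 and 40.1 FPKM. Each EGR1OV library was far above all 6 others, and the H/R libraries were above the Sham libraries by a narrow gap. Behind these levels stood 451 to 540 reads in each Sham library, 595 to 626 in each H/R library and 3024 to 3403 in each EGR1OV library. Mean Egr1 in EGR1OV was 6.66 times that in Sham, a difference of 2.56 log2 units (SE 0.0658, limma adjusted p = 2.19e-09), rank 118 of the 13985 genes tested. It was 5.41 times the mean after H/R (log2 difference 2.30, adjusted p = 4.62e-09). FPKM divides the reads by all 4484 exon bases of the gene, of which at most 1599 are coding. The stretch of Egr1 carried by the plasmid is not given in the sources used here. The Egr1 levels of EGR1OV may therefore not be comparable per length with other genes or groups.

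After H/R, Egr1 was 1.23 times its Sham mean, 7.88 ± 0.599 against 6.40 ± 0.443 FPKM (SD, n = 3). The difference of 0.26 log2 units (95% interval 0.11 to 0.41) stood at the threshold of 1.2-fold, with a limma adjusted p of 0.0348. This call was lost when Sham replicate 1 or 3, any 1 of the 3 H/R replicates, or EGR1OV replicate 2 was left out, with adjusted p from 0.0509 to 0.103. The difference itself stayed between 0.21 and 0.31 log2 units in all 9 of these fits, and it was 0.29 and 0.30 without H/R replicate 2 and 3. The exact two-sided permutation test gave p = 0.1 for each comparison of Egr1, the smallest that 3 against 3 libraries allow.

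Egr2, a relative of Egr1 best known from Schwann cell myelination and hindbrain patterning, rose after H/R. The Sham libraries were at 0.966, 0.709 and 0.820 FPKM, the H/R libraries at 1.76, 2.39 and 1.66 FPKM, and the EGR1OV libraries at 0.691, 0.540 and 0.612 FPKM. All H/R libraries were above all others, and all EGR1OV libraries were below all Sham libraries, although 0.691 and 0.709 nearly touched. The mean after H/R was 2.33 times the Sham mean, a difference of 0.67 log2 units (SE 0.102, limma adjusted p = 0.0049), rank 52 from the top among 13985 genes. In EGR1OV the mean was 0.739 of the Sham mean and did not pass the test (log2 difference -0.18, 95% interval -0.41 to 0.05, adjusted p = 0.183).

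The counts behind Egr2 were low. Summed over 3 libraries there were 142 reads in Sham, 346 after H/R and 104 in EGR1OV. The 95% Poisson intervals of the pooled level, which cover counting error only, were 0.699 to 0.978 FPKM in Sham and 0.502 to 0.745 FPKM in EGR1OV and overlapped, whereas the interval after H/R, 1.75 to 2.16 FPKM, met neither. EGR1OV and H/R differed from each other: Egr2 was 0.317 of the H/R level in EGR1OV (log2 difference -0.86, 95% interval -1.09 to -0.62, limma adjusted p = 0.000107). Since macrophages can also express Egr2, the sums of the macrophage markers above are to be read beside this difference. Against Sham, these sums were lower after H/R, while Egr2 was higher. Between H/R and EGR1OV both were lower in EGR1OV, the sums at 131 to 141 FPKM after H/R and 28.2 to 33.4 FPKM in EGR1OV. The part of macrophages in the Egr2 levels was not tested. Schwann cell markers were at the limit of detection: of 7 genes only Erbb3 passed the filter, and it passed no test. The glial factor Sox10 had 1, 2 and 5 reads in Sham, H/R and EGR1OV.

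Egr3, a relative with roles in muscle spindles and lymphocytes, was close to the limit of detection. Its libraries held 14, 14 and 15 reads in Sham, 8, 19 and 13 after H/R and 10, 5 and 10 in EGR1OV. The EGR1OV levels, 0.0694 to 0.137 FPKM, were below the Sham levels of 0.182 to 0.206 FPKM, and the H/R levels overlapped both. The Poisson intervals of the pooled levels, 0.140 to 0.261 FPKM in Sham and 0.0738 to 0.168 FPKM in EGR1OV, overlapped in part. Fitted without the filter, the limma difference was -0.10 log2 units (adjusted p = 0.164) and did not pass the test, and the exact permutation test gave p = 0.1, the smallest possible here. Egr4, the remaining gene of the family, had 0 to 2 reads in every library and 4, 3 and 2 reads in the sums of Sham, H/R and EGR1OV, so that no fold is given.

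Nab1 was the corepressor that rose in EGR1OV. Its libraries were at 11.4, 11.6 and 11.4 FPKM in Sham, 12.6, 12.9 and 13.4 FPKM after H/R, and 18.6, 19.3 and 18.1 FPKM in EGR1OV. The 3 groups followed each other without overlap, and the spread within Sham was the smallest of any member, a coefficient of variation of 1.16%. In EGR1OV the mean was 1.63 times that in Sham, a difference of 0.66 log2 units (SE 0.0355, limma adjusted p = 4.96e-07), rank 671 of 13985. Against H/R it was 1.44 times as high (log2 difference 0.49, adjusted p = 3.47e-06); with quantile normalization this difference was 0.37 and no longer reached 1.3-fold. After H/R Nab1 was 1.13 times its Sham level, 0.16 log2 units (95% interval 0.08 to 0.24, adjusted p = 0.02), under the fold threshold and therefore not called.

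Nab2, the second corepressor, did not pass the test in any comparison. Its levels were 2.52, 2.98 and 3.17 FPKM in Sham, 3.42, 2.79 and 2.86 FPKM after H/R, and 3.36, 4.04 and 2.95 FPKM in EGR1OV. The groups overlapped throughout. The EGR1OV mean was 1.19 times the Sham mean (log2 difference 0.19, 95% interval -0.04 to 0.42, limma adjusted p = 0.168) and the H/R mean 1.05 times (0.05, interval -0.18 to 0.28, adjusted p = 0.812). Against H/R the EGR1OV difference was 0.14 (interval -0.09 to 0.37, adjusted p = 0.29). The upper end of the interval against Sham, 0.42 log2 units, was below the difference of 0.66 for Nab1. Among its overlapping partners, Stat6, a cytokine signal transducer, rose from 23.1 ± 0.589 to 32.8 ± 0.321 FPKM in EGR1OV (SD, n = 3; log2 difference 0.49, adjusted p = 6.17e-06), while Nemp1 was at 1.96 and 2.16 FPKM and was not called. The part of these overlaps in the Nab2 values was not tested.

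**Figure D2:**
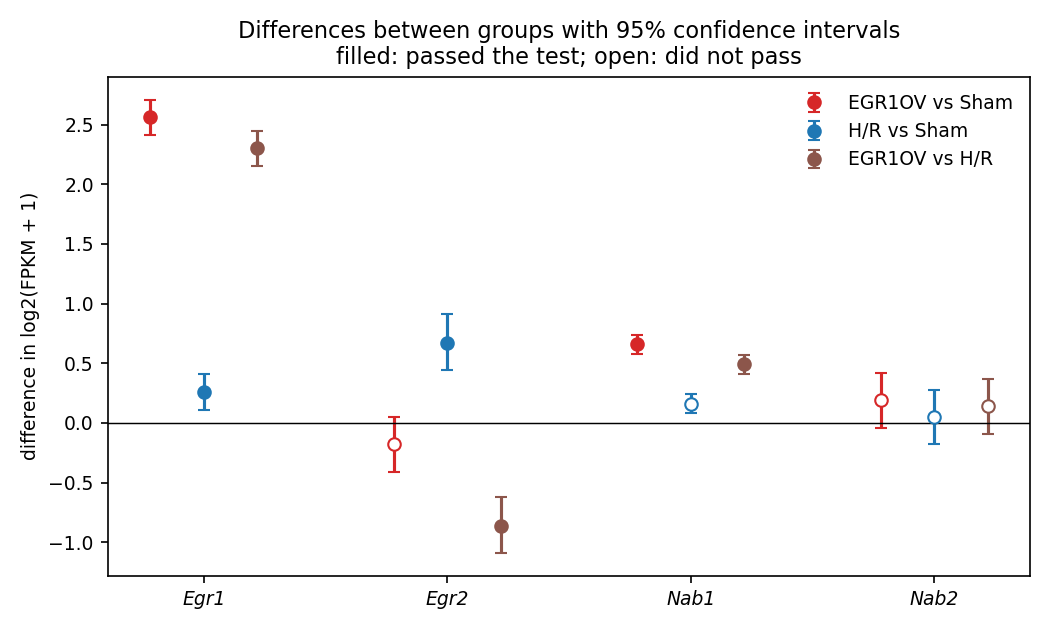
Difference in log2(FPKM + 1) for the 4 tested members in each comparison, with 95% confidence intervals from limma; filled points passed the test and open points did not. Egr2 lies above 0 after H/R and near or below 0 in EGR1OV, and the 3 intervals of Nab2 include 0.

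Counted together, 2 of the 4 tested members rose in EGR1OV against Sham (Egr1 and Nab1), where 16.4% of all genes tested were called, 9.87% higher and 6.51% lower. After H/R 2 of 4 rose (Egr1 and Egr2), against 4.25% of all genes called, 1.6% higher and 2.65% lower. Between EGR1OV and H/R, 3 of 4 were called, Egr1 and Nab1 higher in EGR1OV and Egr2 lower, against 18.9% of all genes, 11.9% higher and 6.94% lower. Both counts for EGR1OV include the transfected gene itself. Other scalings moved the split over all genes: of the calls after H/R 37.7% were higher, or 58.2% with median-ratio scaling and 56.5% with quantile normalization. For EGR1OV against Sham 60.3% were higher, or 45.9% with quantile normalization, and for EGR1OV against H/R 63.2%, or 51% and 42.5%. The direction of every called member stayed the same under both scalings. Both treated groups were compared with the same Sham libraries.

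The balance of activators and corepressors differed between groups as well; these ratios are descriptions of FPKM values and were not tested. Egr1 over the sum of Nab1 and Nab2 was 0.446, 0.473 and 0.418 in the Sham libraries, 0.536, 0.484 and 0.459 after H/R, and 2.08, 1.81 and 1.90 in EGR1OV. By FPKM, Egr1 was thus below the sum of its corepressors in every Sham and H/R library and above it in every EGR1OV library. Within the summed Egr1, Egr2 and Egr3 level, Egr2 made up 9.09% to 13.1% in the Sham libraries, 16.9% to 23.4% in the H/R libraries and 1.26% to 1.5% in the EGR1OV libraries. Nab1 over Nab2 was 4.0 ± 0.459 in Sham, 4.33 ± 0.576 after H/R and 5.49 ± 0.677 in EGR1OV (SD, n = 3). The Nab1 over Nab2 ranges of Sham (3.60 to 4.50) and H/R (3.67 to 4.71) overlapped, and that of EGR1OV started at 4.78.

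**Figure D3:**
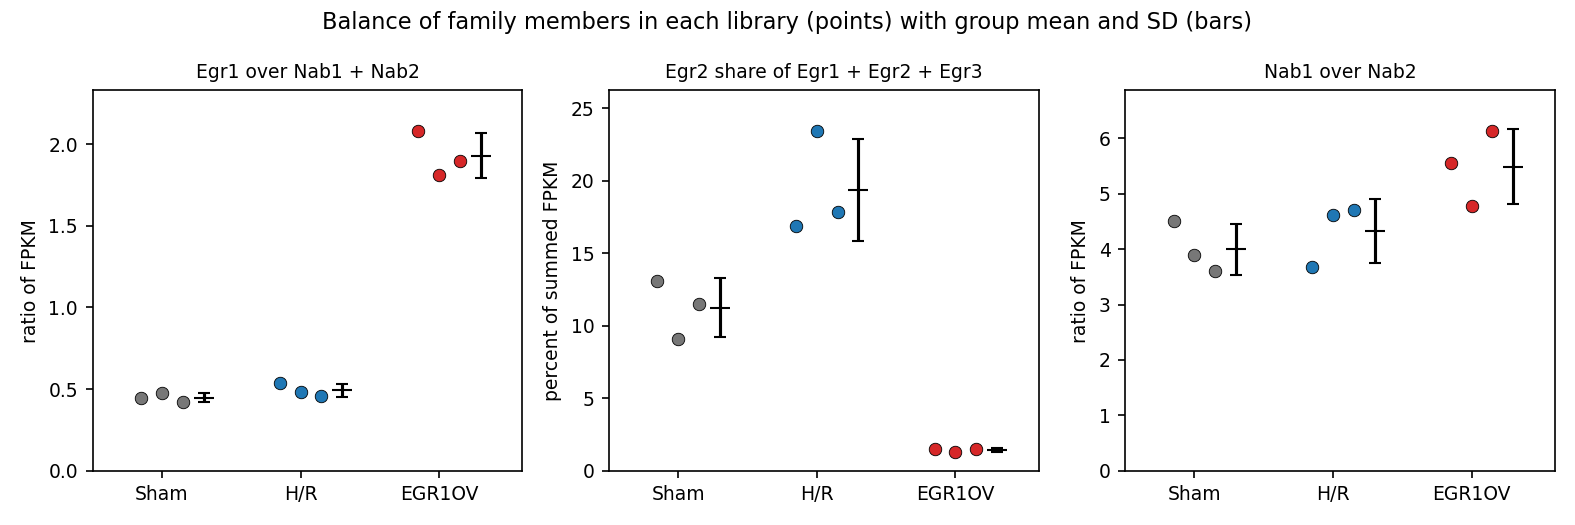
Ratio of Egr1 to Nab1 plus Nab2 (FPKM over FPKM), Egr2 as a percent of the summed Egr level, and ratio of Nab1 to Nab2 in each library (points), with the group mean and SD (bars). By FPKM, Egr1 exceeds its corepressors in the EGR1OV libraries alone, at ratios of 1.81 to 2.08.

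The partners of the pathway were read from gene lists. Immediate early genes, the class to which Egr1 belongs, had 10 of 29 tested genes higher and 1 lower in EGR1OV. Of all genes tested, 9.87% were called higher and 6.51% lower there. The list median was 0.22 log2 units against 0.017 for all genes tested. Atf3, a stress-induced leucine zipper factor, rose from 5.36 ± 0.537 to 13.7 ± 0.682 FPKM, Fos, an AP-1 subunit, from 1.67 ± 0.134 to 4.55 ± 0.418 FPKM and Nr4a1, an orphan nuclear receptor, from 1.94 ± 0.189 to 4.77 ± 0.408 FPKM (SD, n = 3; log2 differences 1.22, 1.06 and 0.97). After H/R 3 of 29 were higher and 1 lower, against 1.6% and 2.65% of all genes. The median was 0.08 against -0.03 for all genes. Dusp5, a phosphatase that inactivates ERK, rose from 21.3 ± 1.16 to 28.6 ± 1.89 FPKM and Fosl1, an AP-1 subunit, from 13.1 ± 0.515 to 17.3 ± 1.3 FPKM, whereas Atf3 fell to 3.77 ± 0.457 FPKM. Atf3 therefore moved up in EGR1OV and down after H/R.

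Of 28 tested genes listed as Egr1 targets from textbook knowledge, 8 rose and 4 fell in EGR1OV, with a median of 0.04. Over all genes tested, 9.87% rose, 6.51% fell and the median was 0.017. The inflammatory cytokine Tnf went from 0.437 ± 0.049 to 4.73 ± 0.305 FPKM, the adhesion molecule Icam1 from 2.87 ± 0.215 to 12.2 ± 0.34 FPKM and the prostaglandin E synthase Ptges from 0.630 ± 0.227 to 4.0 ± 0.268 FPKM (SD, n = 3). These 3 genes, which had the largest rises of the list, are also known to respond to inflammatory signals. The 15 interferon response genes rose in the same libraries, as did all genes called higher in EGR1OV. A link between these rises was not tested. The 4 that fell included the matrix genes Fn1 (2090 to 1360 FPKM) and Thbs1 (1280 to 794 FPKM). After H/R 7 of 28 rose and 1 fell (median 0.11), against 1.6% and 2.65% of all genes (median -0.03). Among those that rose, Fgf2, a fibroblast growth factor, went from 1.89 ± 0.197 to 3.11 ± 0.283 FPKM and Arc, a synaptic immediate early gene, from 8.16 ± 0.683 to 11.7 ± 0.856 FPKM.

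Genes upstream of Egr1 and partners of Nab gave at most 2 calls per list against Sham, to be read beside the 16.4% of all genes called in EGR1OV and the 4.25% called after H/R. In the list of ERK and serum response factor input, 1 of 20 rose and 1 fell in EGR1OV. After H/R the reported limma fit and voom called 0, and 8 of 20 had an unadjusted limma p under 0.05. Median-ratio scaling gave 1 call after H/R, and dropping the fold threshold gave 4. The genes called in EGR1OV were the ERK kinase Map2k1, from 39.4 ± 0.369 to 61.8 ± 1.42 FPKM, and the receptor Egfr, from 51.9 ± 0.961 to 37.6 ± 0.343 FPKM (SD, n = 3; log2 differences 0.64 and -0.45). Of 13 subunits of the NuRD complex, through which Nab proteins repress, 0 were called by limma or voom in EGR1OV. There 6 had an unadjusted limma p under 0.05, and 5 had an adjusted limma p under 0.05 but fell short of 1.3-fold. After H/R 1 fell, Mta3, from 7.41 ± 0.661 to 5.94 ± 0.216 FPKM (limma adjusted p = 0.0227). The NuRD count after H/R was 0 without the filter, with median-ratio scaling, with quantile normalization, and when Sham replicate 1 or 3 or any 1 of the H/R replicates was left out. Of 3 coactivators of Egr factors, the acetyltransferase Kat2b rose in EGR1OV, from 8.76 ± 0.249 to 13.5 ± 0.341 FPKM (log2 difference 0.57), and 0 of the 3 were called by limma or voom after H/R, where 1 had an unadjusted limma p under 0.05.

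Related zinc finger factors that bind similar GC-rich sites gave 1 call in each comparison with Sham among 4 tested. Sp4 fell in both, from 1.73 ± 0.085 FPKM to 1.00 ± 0.0194 in EGR1OV and 1.18 ± 0.0888 after H/R (SD, n = 3; log2 differences -0.45 and -0.33). Wt1, whose protein binds EGR-type sites, was at 3.45 ± 0.247, 3.71 ± 0.198 and 4.62 ± 0.0272 FPKM in Sham, H/R and EGR1OV, and its EGR1OV difference of 0.34 log2 units (adjusted p = 0.000658) was under the fold threshold. Among 6 myelin genes known as Egr2 targets, 3 were tested. Pmp22, which epithelial cells also express, fell in EGR1OV from 5.29 ± 0.531 to 2.25 ± 0.105 FPKM (log2 difference -0.95), and 0 of the 3 were called by limma after H/R, the condition in which Egr2 rose, where 1 had an unadjusted p under 0.05 and voom called 1. The myelin genes Mag and Gjb1 had at most 4 reads per group.

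**Figure D4:**
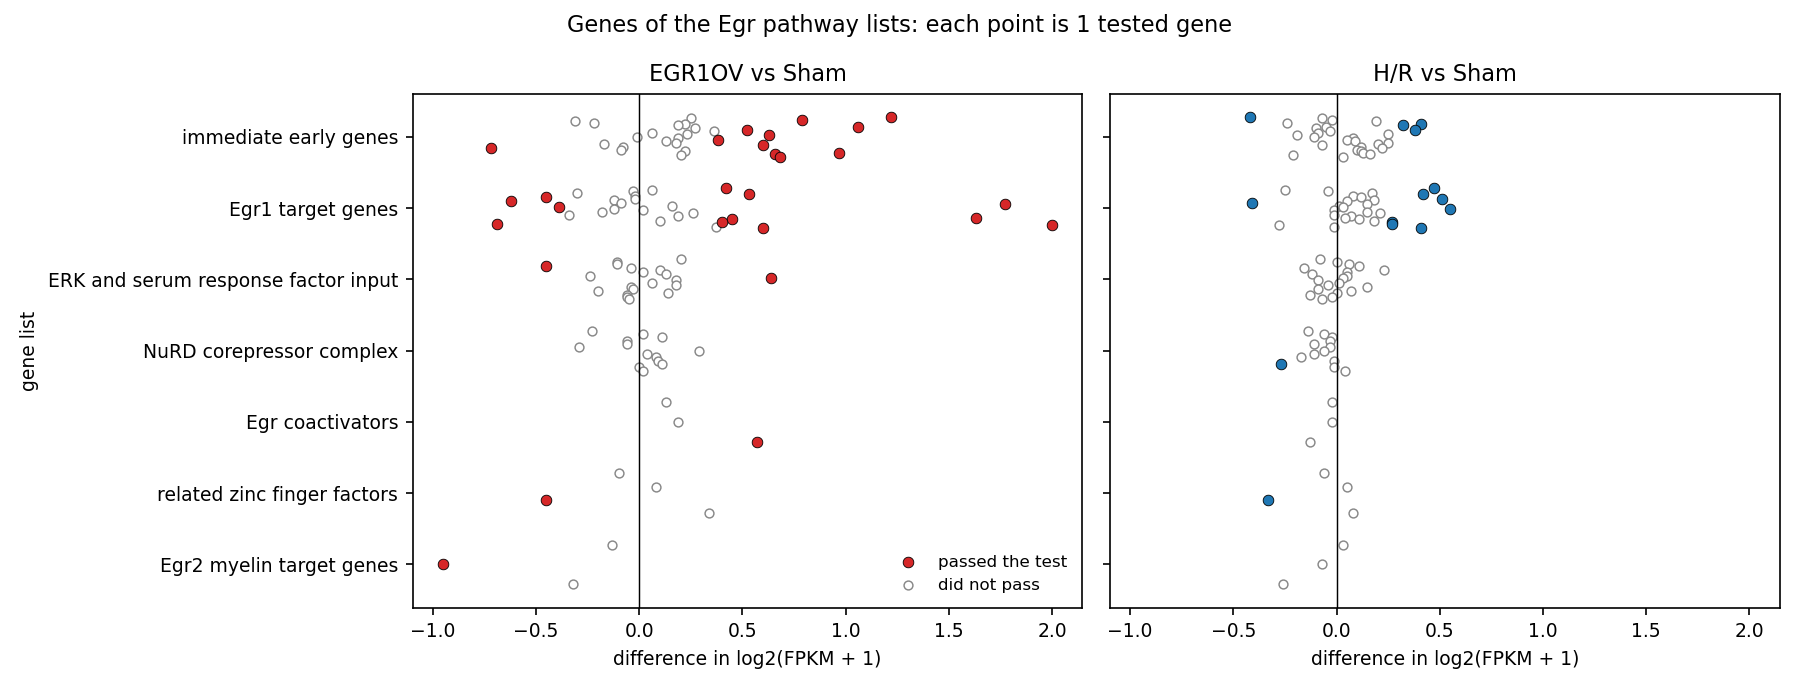
Difference in log2(FPKM + 1) of each tested gene of 7 pathway lists (rows) in EGR1OV against Sham (left) and H/R against Sham (right); filled points passed the test and open points did not. Immediate early genes and Egr1 targets, the longest lists with 29 and 28 tested genes, hold most filled points. They hold 11 and 12 in EGR1OV and 4 and 8 after H/R, and the NuRD list of 13 holds 0 and 1.

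The genes most like each member were found by Pearson correlation of log2(FPKM + 1) over the 9 libraries among 7588 tested genes that averaged 5 FPKM or more. The 9 points fall into 3 groups, so a correlation mainly reflects the order and spacing of the group means, and it is given as a description. For Egr1 the closest were Ifi211 (r = 0.999), Gm20559 and Ccl7 (both 0.998), each low in Sham and H/R and high in EGR1OV; Ifi211, an interferon-inducible gene, was at 4.56, 5.71 and 69.0 FPKM. For Egr2 they were Mapk6 (0.968), Mkl1 and Wisp1 (both 0.967), which were highest after H/R and lowest in EGR1OV, Wisp1 at 47.5, 60.9 and 42.6 FPKM. For Nab1 they were Spsb1 (0.996), Lama3 and Birc3 (both 0.995), Lama3 at 9.26, 11.0 and 19.1 FPKM. For Nab2 the closest were Pcf11 (0.895), Med17 (0.879) and Bcr (0.864). The weaker likeness of Nab2 went with groups that overlapped and with differences that passed the test in no comparison.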

How the data were processed

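RNA of primary mouse TECs was sequenced on an Illumina NovaSeq instrument in 9 libraries. The authors deposited 1 table of FPKM per gene, normalized to gene length and library size. The submitters' processing notes name mm9, HISAT2 2.1.0, Bowtie2 2.2.3 and TopHat2, but 94.8% of the table's positions equal GENCODE M21 (GRCm38), which was used here. The read counter and its strand setting are not given in the sources used here. Whole reads were recovered from FPKM and exon lengths (94.0% of 162896 low values within 0.02 reads of a whole number) and gave the depth, the counting intervals and the voom alternative; 3 reads served as the floor.

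Groups and replicate numbers came from the labels. The log2(FPKM + 1) values of genes averaging 0.5 FPKM or more were fitted for all 9 libraries in limma 3.58.1 (R 4.3.3; lmFit, eBayes with trend, two-sided) with Benjamini-Hochberg adjustment. The study gives thresholds but no test for these comparisons; the 1.3-fold used between EGR1OV and H/R is a choice made here. Single values were also compared with the exact permutation test (scipy 1.17.1). The fit was tested on simulated data. There were 7 pathway lists (immediate early genes, Egr1 targets, ERK and serum response factor input, NuRD, coactivators, related zinc finger factors, Egr2 myelin targets) and 6 marker lists (tubular epithelium, macrophage, endothelium, fibroblast, Schwann cell, interferon response). Members and lists were chosen with earlier results of these data known. Named besides the members were Egr4 and Wt1, up to 3 called genes per pathway list with the largest change in each comparison with Sham and 1 FPKM or more in the higher of the groups, the 3 genes most like each tested member, cell type markers set beside a result, and the genes overlapping Nab2. Fn1, Thbs1, Mag and Gjb1 were chosen after their values were seen, and 1 gene that the rule names is not reported here. Alternatives covered the pseudocount, filter, scaling, replicate block, trend, groups fitted, fold threshold, voom and leaving out each library. No 2 replicates agreed within sampling noise.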

Additional observations from a re-analysis of the deposited data

Results flagged for a closer look

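Egr2 was above its Sham level in all 3 H/R libraries and below it in all 3 EGR1OV libraries. Tested against each other, EGR1OV and H/R differed by -0.86 log2 units (limma adjusted p = 0.000107), with means of 0.614 ± 0.0755 FPKM in EGR1OV and 1.94 ± 0.392 FPKM after H/R (SD, n = 3). Against Sham, the rise after H/R passed the test and the lower level in EGR1OV did not (adjusted p = 0.183).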

How the results depend on the processing

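Egr1 in EGR1OV kept its direction and call under all 20 alternatives against Sham (2.49 to 2.73) and against H/R (2.18 to 2.44), and the Egr2 difference in EGR1OV against Sham stayed negative and uncalled (-0.42 to -0.13; adjusted p 0.103 to 0.411). With a 2-fold threshold 1, 0 and 1 members were called in EGR1OV against Sham, H/R against Sham and EGR1OV against H/R, since Nab1 (0.66 and 0.49), Egr2 (0.67 and -0.86) and Egr1 after H/R (0.26) fall short of it. With no fold threshold Nab1 after H/R (0.16) was called. Quantile normalization ended the call of Nab1 in EGR1OV against H/R (0.37). Egr1 after H/R, 0.26 in each of these fits, lost its call without a filter (adjusted p = 0.088), without trend (0.0527) and with only the groups compared (0.0539), which left 1 member called, as did a filter at 5 FPKM, which removes Egr2. Leaving out 1 library, Egr1 after H/R ranged from 0.21 to 0.31 with 1 to 2 members called, Egr2 after H/R from 0.57 to 0.74, Nab1 in EGR1OV from 0.64 to 0.68, and Nab2 after H/R from -0.02 to 0.10, turning negative without Sham or H/R replicate 1.

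Replicate numbers showed no clear pairing of the samples: of 9 same-numbered pairs, the deviations of 2 correlated over 0.1 (range -0.195 to 0.263). With 3 libraries per group, this check cannot show that the libraries were unpaired. The replicate block changed no call of a member (Egr1 2.56, 0.26 and 2.30 in the 3 comparisons; adjusted p after H/R 0.0379) and gave 2309, 516 and 2654 called genes in EGR1OV against Sham, H/R against Sham and EGR1OV against H/R, where the reported fit gave 2291, 594 and 2641. In the same order, a filter at 5 FPKM gave 1315, 372 and 1520, no fold threshold 6417, 1635 and 7135, and a 2-fold threshold 484, 11 and 489; voom on recovered reads gave 995 after H/R. Over the alternatives the Egr1 target list had 3 to 20 called genes in EGR1OV and 0 to 13 after H/R. Depth limits Egr3 and Egr4 most, at no more than 19 and 2 reads per library.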
